A study of Homo sapiens with 6 samples.

Results

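Keratins are the intermediate filament proteins of epithelial cells, and the 10 keratin genes described here are those of simple, single-layered epithelium together with several that are at home in other epithelia: KRT8, KRT18, KRT19, KRT20, KRT7, KRT10, KRT17, KRT23, KRT80 and KRT81. They were taken by symbol from the count tables of 6 RNA-seq libraries, 10 of 56638 genes, and no pseudogene was added. The list was drawn up because KRT8 and KRT18 were already known to be much lower in one group of these libraries, so the fold changes of the 10 genes are given as a description and not as a test. The libraries came from a human colorectal cancer cell line at passage 16 to 19. The cells received either nonspecific control siRNA (Control siRNA, 3 libraries) or siRNA against the long noncoding RNA GLCC1, named lncRNA-AF339830 in the labels (GLCC1 siRNA, 3 libraries). The titles number the siRNAs within each group, and the study lists different siRNA sequences against GLCC1. The sources used here do not say whether the numbers mark replicates or sequences. The labels name the line SW480 whereas the study's methods name DLD-1, and the time between transfection and harvest is not given in the sources used here.

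A type II keratin (here KRT8, KRT7, KRT80 and KRT81) and a type I keratin (here KRT18, KRT19, KRT20, KRT10, KRT17 and KRT23) form an obligate pair, and pairs assemble into the filaments that span the cytoplasm from desmosome to desmosome. Keratin 8 pairs with keratin 18 or keratin 19 in simple epithelia such as that of the colon, while keratin 20 marks its differentiated cells. A keratin protein without a partner is unstable and is degraded, so the supply of both types matters for filament assembly.

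Counts on genes summed to between 11948790 and 19042516 in each library. The library GLCC1 siRNA 2 had the fewest and stood apart from the others of its group. The chi-square per degree of freedom between its counts and those of the other GLCC1 siRNA libraries was 18.1 and 19.0, against 3.28 between those and 1.93 to 4.16 among the control libraries. Of the reads on genes, outside any gene or ambiguous, those outside any gene made up 11.2% to 11.5% in the control libraries. In the GLCC1 siRNA libraries they made up 12.5% to 14.2%, with the highest value again in GLCC1 siRNA 2. In the library names the siRNAs are swapped between the groups. Titles and source names were followed here, and with the library names every sign below would turn. No row carries the name GLCC1, so the target itself could not be read in any library. The colon epithelial markers fixed for this report, 7 of 10 of them at 1 CPM or more, summed to 1153 to 1209 CPM in the control and 968 to 1077 CPM in the GLCC1 siRNA libraries. Of these markers 4 passed as lower (EPCAM, CDH1, CDX1 and LGALS4) and 1 as higher (CDH17), against 16.7% and 14.9% of all tested genes. Among genes averaging 10 CPM or more the shares were 29.8% lower and 20.1% higher. Some genes listed for other cell types were at 0 in all 6 libraries. These were PTPRC of leukocytes, PECAM1, CDH5 and KDR of endothelium, COL1A2, DCN and LUM of fibroblasts, and TP63 and IVL of squamous epithelium. Other genes of these lists had counts. COL1A1 averaged 13.4 CPM in the control and 7.38 CPM in the GLCC1 siRNA libraries and passed as lower. PDGFRB averaged 4.56 and 4.8 CPM, CD14 3.29 and 4.39 CPM, and VWF 0.799 and 0.937 CPM, and none of these passed. Summed, the fibroblast list lay at 16.08 to 19.95 CPM in the control and 10.7 to 13.3 CPM in the GLCC1 siRNA libraries, the leukocyte list at 3.02 to 4.10 and 3.26 to 5.53, the endothelial list at 0.542 to 1.03 and 0.318 to 1.40, and the squamous list at 0 to 0.241 and 0.104 to 0.716 CPM. The part of these values, and of the reads outside genes, in the keratin differences was not tested.

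KRT8 and KRT18 are neighbours at the end of the type II keratin cluster on chromosome 12, while KRT19 and KRT10 lie in the type I cluster on chromosome 17. In GENCODE 44 on GRCh37, the build of the counts, the canonical transcript of KRT8 runs on the minus strand from 53290975 to 53298860 on chromosome 12 with 8 exons. That of KRT18, the only type I keratin in the type II cluster, runs on the plus strand from 53342902 to 53346690 with 7 exons, and 44041 bases separate the canonical transcripts. The genes as annotated overlap, since alternative transcripts of KRT8 reach to 53343738, and 31.1% of the KRT18 transcript overlaps exons of KRT8, on the opposite strand, or of AC107016.2, a small RNA gene on the same strand. KRT19 lies on the minus strand of chromosome 17 from 39679869 to 39684560 with 6 exons. KRT10 lies on the same strand from 38974369 to 38978866 with 8 exons.

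Measured per kilobase of transcript, so that genes can be compared, KRT8 was the most abundant of the 10 keratins in the control libraries, at 2009 ± 101 CPM per kb (SD, n = 3). CPM is a count relative to its library's total on genes, scaled by TMM, and per kb refers to the canonical transcript. KRT19 followed with 634 ± 42.3 and KRT18 with 299 ± 5.00 CPM per kb, and the ranges of these genes did not overlap. Together KRT8, KRT19 and KRT18 made up 68.0%, 21.4% and 10.1% of the summed level. KRT10 with 8.83 ± 0.855 CPM per kb and KRT80 with 3.93 ± 0.316 CPM per kb came next, without overlap. KRT20, KRT7 and KRT81, at 0.357, 0.291 and 0.277 CPM per kb, had overlapping ranges, and KRT23 and KRT17 were at 0.0373 and 0.0265 CPM per kb. The line thus expressed the keratin 8, 18 and 19 set of simple epithelium, with keratin 20 and keratin 7 close to the limit of detection.

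**Figure D1:**
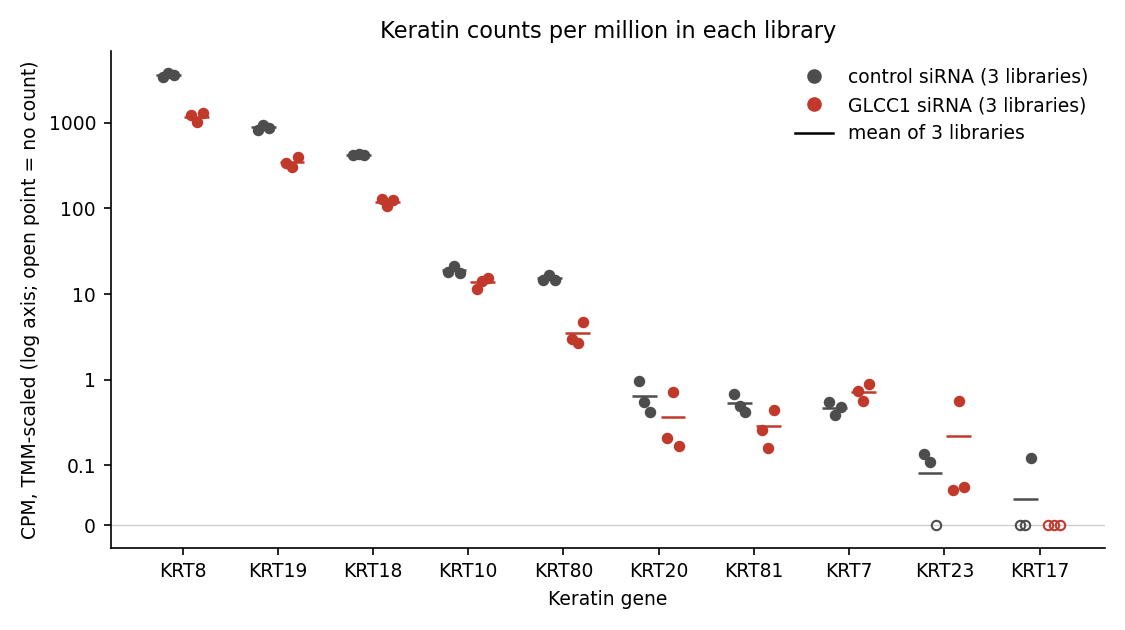
CPM (TMM-scaled, log axis) of the 10 keratin genes in each of the 3 control siRNA (grey) and 3 GLCC1 siRNA (red) libraries; lines are group means, and open points on the line marked 0 are libraries with no count. KRT8, KRT19, KRT18, KRT10 and KRT80 are lower in every GLCC1 siRNA library than in any control library, while KRT20, KRT81, KRT7, KRT23 and KRT17 stay below 1 CPM throughout.

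The abundant keratins were all lower with GLCC1 siRNA, KRT8 by 3.04-fold, KRT18 by 3.53-fold and KRT19 by 2.53-fold, and the scarcer KRT80 by 4.32-fold. KRT10 was lower by 1.39-fold. Of the 9 keratins with enough counts to be tested, 5 passed an adjusted p of 0.05 in the lower direction in edgeR's quasi-likelihood test over 23074 genes (KRT8, KRT18, KRT19, KRT10 and KRT80) and 0 in the higher. Across all tested genes 31.6% passed, 16.7% in the lower and 14.9% in the higher direction. In these 5 each GLCC1 siRNA library was below each control library, as was so for 24.0% of all tested genes, and since the list was chosen on this comparison nothing is read from either difference. The median log2 fold change (GLCC1 siRNA over control) of the 9 keratins was −0.92, beside 0.03 for all tested genes. These are bulk RNA values, so fewer cells rich in a keratin and less keratin RNA per cell cannot be told apart.

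KRT8, the type II keratin of simple epithelium, had 49723, 68378 and 59362 counts in control libraries 1 to 3 and 23501, 12646 and 23257 counts in GLCC1 siRNA libraries 1 to 3. Scaled for depth, this was 3409, 3768 and 3575 CPM against 1225, 1006 and 1301 CPM. The highest GLCC1 siRNA library was below the lowest control library by more than the range within either group. Means were 3584 ± 180 and 1177 ± 153 CPM (SD, n = 3 each), a log2 fold change of −1.61 (SE 0.096), or −1.50 without the library GLCC1 siRNA 2. Among the 10378 genes averaging 10 CPM or more, KRT8 had rank 68 by size of the fall.

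KRT18, its main type I partner, had 423, 430 and 416 CPM in the control libraries and 128, 106 and 125 CPM in the GLCC1 siRNA libraries. The 3 control libraries were closer to each other than for any other abundant keratin, and the groups did not overlap. Means were 423 ± 7.07 and 120 ± 11.9 CPM (n = 3 each), a log2 fold change of −1.82 (SE 0.089), or −1.74 without GLCC1 siRNA 2, which is rank 32 by size of the fall. The counts behind these values ran from 6168 to 7806 in the control and from 1334 to 2451 in the GLCC1 siRNA libraries. Whether reads were counted by strand is not given in the sources used here. Without strand, the union mode used sets a read on exons of both genes aside as ambiguous. The KRT18 counts may therefore lack reads from the part that overlaps antisense KRT8 exons.

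KRT19, the smallest keratin and the other type I partner of keratin 8, had 828, 944 and 870 CPM in the control and 342, 303 and 397 CPM in the GLCC1 siRNA libraries. Again each GLCC1 siRNA library was below each control library, and GLCC1 siRNA 2 was the lowest. The log2 fold change was −1.34 (SE 0.10), with means of 881 ± 58.8 and 347 ± 47.0 CPM (n = 3 each), −1.25 without GLCC1 siRNA 2, and rank 134.

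In each GLCC1 siRNA library KRT19 was the least and KRT18 the most reduced of these genes. Relative to the control mean on the log2 scale (0.5 CPM added), KRT19 stood at −1.36, −1.54 and −1.15 in libraries 1 to 3. KRT8 stood at −1.55, −1.83 and −1.46, and KRT18 at −1.72, −1.99 and −1.75. GLCC1 siRNA 2, the shallowest library, was the lowest for all 3 genes.

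The balance between the partners therefore shifted while their sum fell. The 10 keratins together took 0.457%, 0.494% and 0.465% of the counts on genes in the control libraries and 0.179%, 0.151% and 0.191% in the GLCC1 siRNA libraries, 0.472% ± 0.0196 against 0.173% ± 0.0204 (SD, n = 3 each), and so fell by 0.298 percentage points. The ratio of KRT8 to KRT18 counts was 8.06, 8.76 and 8.59 in the control libraries and 9.59, 9.48 and 10.4 in the GLCC1 siRNA libraries, higher in 3 of 3. That of KRT8 to KRT19 was 4.12, 3.99 and 4.11 against 3.58, 3.32 and 3.28, lower in 3 of 3. KRT19 thereby made up 20.9% ± 0.770 of the keratin counts with GLCC1 siRNA and 17.9% ± 0.304 in the control, while KRT18 made up 7.22% ± 0.370 against 8.60% ± 0.364.

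Per kilobase, which makes the levels of different genes comparable, KRT18 stood at 0.448 to 0.502 of KRT19 in the control libraries and at 0.311 to 0.367 in the GLCC1 siRNA libraries. KRT8 was 2.13 to 2.18 times the sum of KRT18 and KRT19 in the control libraries and 1.92 to 2.04 times with GLCC1 siRNA. By this measure the type II partner was in excess at the RNA level in all 6 libraries. Whole transcript lengths were used, with no correction for KRT18 reads lost where it overlaps KRT8 exons. Counts on KRT8 pseudogene rows were not added either. These ratios come from the comparison on which KRT8 and KRT18 were chosen, so no test was made of them.

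**Figure D2:**
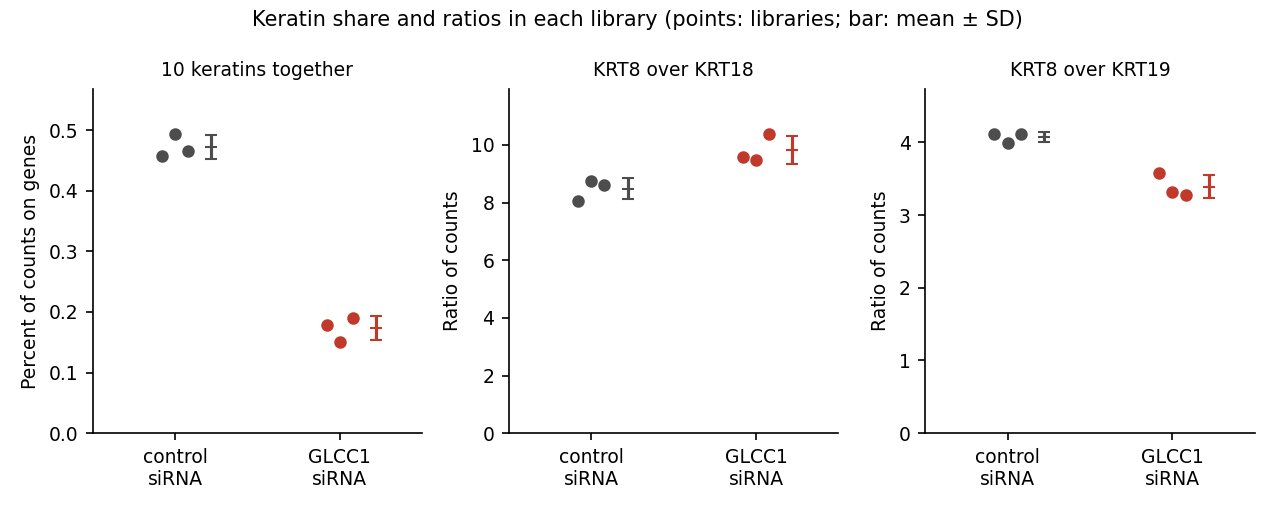
Share of the counts on genes taken by the 10 keratins (percent, left), ratio of KRT8 to KRT18 counts (middle) and ratio of KRT8 to KRT19 counts (right) in each library, with the mean and SD of the 3 libraries of each group beside the points; all axes start at 0. The share falls from between 0.457% and 0.494% to between 0.151% and 0.191%, the middle ratio is higher and the right ratio lower in every GLCC1 siRNA library.

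KRT80, a type II keratin found in many epithelia, had 14.5, 16.6 and 14.5 CPM in the control libraries and 3.02, 2.70 and 4.70 CPM in the GLCC1 siRNA libraries. Its groups did not overlap, and it had the steepest fall of the 10 keratins, at 15.2 ± 1.22 against 3.48 ± 1.07 CPM (n = 3 each) and a log2 fold change of −2.11 (SE 0.178), or −1.99 without GLCC1 siRNA 2. The counts were 212 to 302 in the control and 34 to 84 in the GLCC1 siRNA libraries, so its error is larger than that of KRT8.

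KRT10, the type I keratin of the upper layers of the epidermis, had 18.2, 21.0 and 17.5 CPM in the control and 11.5, 14.1 and 15.5 CPM in the GLCC1 siRNA libraries. The gap between the groups was narrower than the range within either of them. Its means were 18.9 ± 1.83 and 13.7 ± 2.04 CPM (n = 3 each), a log2 fold change of −0.47 (SE 0.132). KRT10 no longer passed at −0.35 without GLCC1 siRNA 1, at −0.39 without control 2 and at −0.35 with library totals in place of TMM, while the other 4 stayed past the threshold under each alternative run.

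The remaining 5 keratins were close to the limit of detection. KRT20, the keratin of differentiated intestinal cells, had 14, 10 and 7 counts in the control libraries and 4, 9 and 3 in the GLCC1 siRNA libraries. These groups overlapped, with a log2 fold change of −0.92 (95% interval −2.05 to 0.21). Without GLCC1 siRNA 2, the GLCC1 siRNA library with 9 counts, the value was −1.70 and passed the threshold.

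KRT7, typical of ducts and glands rather than of colon, was the only one of the 9 tested keratins whose GLCC1 siRNA libraries all lay above the control libraries, with 0.730, 0.557 and 0.895 CPM against 0.548, 0.386 and 0.482 CPM. That rests on 8, 7 and 8 counts in the control and 14, 7 and 16 counts in the GLCC1 siRNA libraries, with a log2 fold change of 0.65 (95% interval −0.12 to 1.43) that did not pass. Across all tested genes 22.3% had all GLCC1 siRNA libraries above all control libraries.

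KRT81, a hair keratin, had 10, 9 and 7 counts against 5, 2 and 8, and its groups overlapped (log2 fold change −0.81, 95% interval −1.80 to 0.19). KRT23 had 2, 2 and 0 counts against 1, 7 and 1, passed the filter only through the GLCC1 siRNA group, and had a log2 fold change of 1.19 with a 95% interval from −1.09 to 3.46. KRT17, a keratin of skin appendages, had 2 counts in control library 3 and 0 in the other 5 libraries. It was not tested, and no fold is given since both groups are within the 3 counts per library that a count of 0 allows.

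KRT8 and KRT18 have many processed pseudogenes, and their rows bear on how exactly it was counted. The tables hold 50 rows of KRT8 pseudogenes, of which 32 had no count, and 67 rows of KRT18 pseudogenes, of which 45 had no count. The KRT8 pseudogenes together had 14.1% to 14.7% of the KRT8 count in the control libraries and 12.6% to 14.9% in the GLCC1 siRNA libraries. Those of KRT18 had 0.405% to 0.525% and 1.61% to 2.47% of the KRT18 count, on 27 to 41 counts per library.

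KRT8P3 held most of these counts, at 332, 343 and 356 CPM in the control and 101, 97.2 and 128 CPM in the GLCC1 siRNA libraries. It fell by 1.66 on the log2 scale (SE 0.104), and KRT8 by 1.61. Its sequence is 97.1% identical to the KRT8 transcript, and 12.4% of the 1635 windows of 150 bases in that transcript matched it with at most 2 mismatches, though 0 matched exactly. KRT8P10, 91.5% identical, had a log2 fold change of −1.90 (SE 0.121), and KRT8P45, 95.1% identical, one of −1.37 (SE 0.161). KRT8P12, at 86.3% identity and with 0 windows within 2 mismatches, went the other way, with a log2 fold change of 0.80 (SE 0.195). The counts of KRT8 and KRT8P3 are therefore uncertain where their sequences are this similar. With all pseudogene rows added to their parent genes, the log2 ratio of KRT8 to KRT18 was higher by 0.19 with GLCC1 siRNA, and by 0.21 without them.

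The coding sequences of the 10 keratins were 45.8% to 53.6% identical between types. They were 45.5% to 67.5% identical within type I and 57.1% to 69.0% within type II, with KRT8 and KRT7 the closest pair. No window of 150 bases of KRT8, KRT18 or KRT19 occurred exactly in any of the pseudogenes compared.

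Of the other 45 keratin genes 13 could be tested, 3 of which passed as lower and 3 as higher, against 16.7% and 14.9% of all tested genes. KRT13, KRT15 and KRT4, which are keratins of stratified epithelium, were the lower ones, and these genes were named after their values were seen because none reached 10 CPM. KRT13 had 16.0, 22.3 and 17.8 CPM in the control libraries and 0.834, 0.716 and 1.23 CPM with GLCC1 siRNA. Its log2 fold change was −4.30 (SE 0.212, adjusted p = 2.4e-08, edgeR), the steepest fall of any tested keratin. KRT15 fell from 11.2 ± 1.43 to 2.50 ± 0.770 CPM (log2 fold change −2.20, adjusted p = 2.9e-06, edgeR) and KRT4 from 2.04 ± 0.257 to 0.758 ± 0.114 CPM (−1.41, adjusted p = 0.0014, edgeR). KRT71 rose from a mean of 1.85 to 3.43 CPM, KRT74 from 0.114 to 0.538 and KRT222 from 1.35 to 2.56 CPM, but each lost its call when some single library was left out, and KRT222 alone kept it without control 1. Of the 13 tested, 4 passed the filter through 1 group only, and 19 of the 45 had no count in any library. KRT13 overlaps an antisense gene over 21.6% of its transcript, and KRT7 overlaps KRT7-AS over 13.6%, so their counts share the doubt over strand given for KRT18.

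KRT13, KRT15 and KRT19 follow each other on chromosome 17 within 27328 bases, and all 3 were lower. Within 500 kb of KRT19 on either side (chr17:39179869-40184560), 13 other protein-coding genes were tested, of which 6 were lower and 2 higher, with a median log2 fold change of −0.19, against 16.7% lower and 14.9% higher among all tested genes. Around KRT8 and KRT18 (chr12:52790975-53846690) the 17 other protein-coding genes tested had a median of −0.02, with 4 lower and 2 higher.

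**Figure D3:**
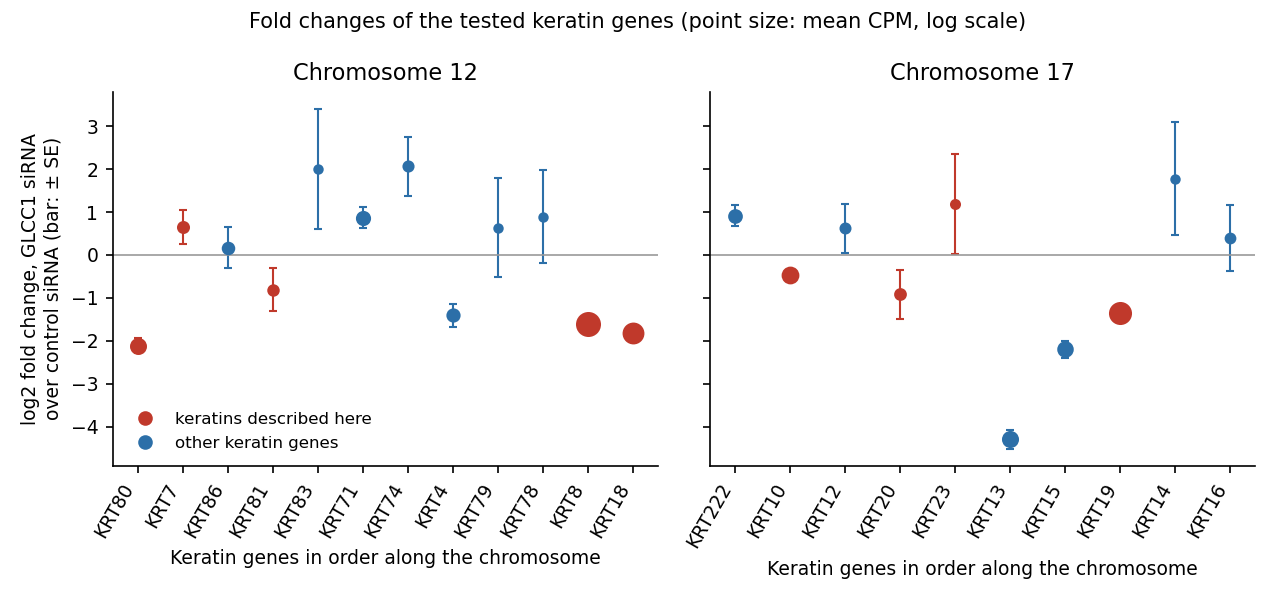
Log2 fold change (GLCC1 siRNA over control siRNA, bars ± SE derived from edgeR's F statistic) of the 22 tested keratin genes in their order along chromosome 12 (left) and chromosome 17 (right). Point size grows with the logarithm of mean CPM, and red marks the keratins described here and blue other keratin genes. KRT8 and KRT18 stand side by side at −1.61 and −1.82, KRT13, KRT15 and KRT19 at −4.30, −2.20 and −1.34, and the small points with long bars have few counts.

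Keratin filaments end on desmosomes, where plakins and plakophilins link them to desmosomal cadherins. Of 17 such genes 16 were tested, 7 were lower and 1 (EVPL) was higher with GLCC1 siRNA, against 29.8% lower and 20.1% higher among all genes averaging 10 CPM or more, and the list's median log2 fold change was −0.23 beside −0.07 for those genes. EVPL, envoplakin, did not pass without control 1, without control 3 or without GLCC1 siRNA 3. DSG2, the desmosomal cadherin of simple epithelium, had 415, 411 and 418 CPM in the control and 186, 201 and 193 CPM in the GLCC1 siRNA libraries (log2 fold change −1.10, SE 0.075, adjusted p = 2.6e-07, edgeR). DSP, desmoplakin, which binds keratin filaments to the desmosome, fell from 564 ± 6.84 to 303 ± 18.7 CPM (−0.89, adjusted p = 1.7e-06, edgeR). PPL, periplakin, fell by 0.77 (adjusted p = 8.9e-05, edgeR) and PKP3, plakophilin 3, by 0.62 on the log2 scale (adjusted p = 0.0010, edgeR). PLEC, the cytolinker plectin, fell by 0.36 (adjusted p = 0.022, edgeR) and no longer passed without control 2, without control 3 or with library totals. Without GLCC1 siRNA 2 its log2 fold change was −0.23.

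Of the filament genes other than keratins 14 were tested, 4 were lower and 5 higher, against 16.7% and 14.9% of all tested genes, and their median log2 fold change was 0.45. NES, nestin, rose from 28.1 ± 1.92 to 46.2 ± 3.15 CPM (0.72, adjusted p = 9.6e-05, edgeR). LMNB1, lamin B1, rose by 0.52 (adjusted p = 0.00039) and SYNM, synemin, by 0.47 (adjusted p = 0.0066), while LMNA, lamin A/C, fell by 0.57 on the log2 scale (adjusted p = 0.00095, all edgeR). The other lower genes, named after their values were seen, averaged under 10 CPM and fell more than LMNA. They were DES at −1.49 (adjusted p = 5e-05), PRPH at −1.56 (adjusted p = 0.0012) and SYNC at −1.65 (adjusted p = 0.0063, all edgeR). The other higher genes were BFSP1 at 1.05 and LMNB2 at 0.44. VIM, vimentin, the filament gene of mesenchymal cells, had 6 counts in each control library and 11, 11 and 17 counts in the GLCC1 siRNA libraries. At 0.368 ± 0.041 against 0.80 ± 0.20 CPM, its log2 fold change of 1.10 (SE 0.416) did not pass (adjusted p = 0.060, edgeR), but it did without GLCC1 siRNA 1, at 1.31, and with library totals, at 1.22.

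Proteins that bind or cleave simple keratins include 14-3-3 proteins, small heat shock proteins and caspases. All 11 genes reported from this list were tested, 3 were lower and 1 (YWHAG) was higher, against 29.8% and 20.1% of all genes averaging 10 CPM or more, with a median log2 fold change of −0.19. The share lower is close to that background. YWHAG, 14-3-3 gamma, had 298, 296 and 307 CPM in the control and 348, 373 and 361 CPM in the GLCC1 siRNA libraries (log2 fold change 0.26, SE 0.074, adjusted p = 0.015, edgeR), and did not pass when any control library was left out. SFN, 14-3-3 sigma, fell by 0.70 (adjusted p = 0.0015) and YWHAQ, 14-3-3 theta, by 0.51 on the log2 scale (adjusted p = 0.00024, both edgeR). HSPB1, the small heat shock protein Hsp27, fell by 0.48 (adjusted p = 0.030, edgeR), which no longer passed when any of the control libraries was left out or with library totals. Without GLCC1 siRNA 2 its log2 fold change was −0.27.

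Of 22 listed transcription factors known for keratin and epithelial genes 21 were tested. Of these, 9 were lower and 5 higher, against 16.7% and 14.9% of all tested genes and 29.8% and 20.1% of those averaging 10 CPM or more, and the median log2 fold change was −0.23. ELF3, an epithelial ETS factor, had 20.4, 29.3 and 24.0 CPM in the control and 10.1, 8.59 and 13.7 CPM in the GLCC1 siRNA libraries (log2 fold change −1.18, SE 0.170, adjusted p = 0.00014, edgeR). GRHL3, which averaged under 10 CPM and was named after its value was seen, fell further. It went from 11.6 ± 0.946 to 2.72 ± 0.770 CPM (−2.06, adjusted p = 2.1e-06, edgeR). CDX1, an intestinal homeobox factor, fell from 39.9 ± 1.67 to 20.4 ± 3.16 CPM (−0.96, adjusted p = 3.2e-05, edgeR), and KLF5, a zinc finger factor of the intestinal crypt, from 649 ± 19.1 to 462 ± 40.5 CPM (−0.49, adjusted p = 0.00044, edgeR). CDX2, the related intestinal factor, was at 94.5 ± 4.38 and 80.1 ± 5.71 CPM and did not pass (log2 fold change −0.24, adjusted p = 0.055, edgeR), though it did without GLCC1 siRNA 2. ETS2 rose by 0.92 (adjusted p = 2.5e-06, edgeR). JUNB fell by 0.86 on the log2 scale (adjusted p = 0.0021, edgeR) but did not pass without GLCC1 siRNA 2, at −0.67.

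KRT8 and KRT18 were compared with 10372 other genes of at least 10 CPM by the root mean square difference of their log2 CPM over the 6 libraries, each centred on its control mean. The genes nearest to KRT8 were RNF187 (0.046), CTDSPL (0.053), PSAPL1 (0.058), TOMM34 (0.065) and EIF2B2 (0.073). Nearest to KRT18 were C14orf1 (0.060), LAPTM4B (0.075), UQCRFS1 (0.089), PYGL (0.105) and SUMF1 (0.111). KRT8 and KRT18 were 0.157 apart, KRT8 and KRT19 0.192, and KRT18 and KRT19 0.345. These distances use the values on which KRT8 and KRT18 were chosen and are given as a description.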

How the data were processed

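Total RNA of transfected colorectal cancer cells was made into 6 TruSeq libraries and sequenced as pairs. The authors mapped the reads with TopHat2 2.0.11 to hg19 (GRCh37) and counted them per gene symbol with HTSeq in union mode, and the deposited values are these raw counts, whole numbers without normalization. Rows that name no gene were removed. Of the pairs on genes, on no gene or ambiguous, 11.2% to 14.2% fell on no gene and 8.19% to 8.89% were ambiguous. Pairs in any other tally are not part of these shares.

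Libraries were grouped by title. The study states in general that its replicates were collected independently, but nothing used here says so of these 3 libraries of a group. Each p sets the group difference against the spread between libraries of a group, estimated partly across genes. This spread may be technical, or may include differences between siRNA sequences if the numbers in the titles mark these. Genes with at least 5 counts summed over a group in either group were kept (23074). TMM factors lay between 0.950 and 1.05, and groups were compared in edgeR 4.0.16 (R 4.3.3) with the robust quasi-likelihood test and Benjamini-Hochberg adjustment over all kept genes. The SE of a log2 fold change was derived as its absolute value divided by the square root of edgeR's F statistic. Intervals are the log2 fold change ± this SE times the normal quantile, so they can be narrower than the test allows. Tried as alternatives were DESeq2 1.42.0, its size factors, library totals, other filters, a replicate block, no robust estimation and each library left out.

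The 10 keratins and all lists were chosen with earlier results of these data known. Named from each list were up to 4 genes with the largest called change at a mean of at least 10 CPM, plus VIM, PLEC, DSP, CDX2 and KLF5, and the 5 genes most alike KRT8 or KRT18. Where a count of 5 or fewer fell outside this rule, its genes were named after their values were seen. Positions, lengths and coding sequences come from GENCODE 44 and the GRCh37 genome, whose release differs from the one used for counting. Protein sequences were not used here, and 1 gene of the list of binding and cleaving proteins and the promoter sequences are not reported here.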

Additional observations from a re-analysis of the deposited data

How the results depend on the processing

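All 9 tested keratins kept their direction under every alternative in which they could be tested. KRT8, KRT18, KRT19 and KRT80 also stayed past the threshold, and the number of keratins called lower was 4 to 6 when each library was left out in turn. Library totals in place of TMM moved the median log2 fold change of all genes from 0.03 to 0.15, with 4735 genes called higher and 2797 lower (62.9% higher, against 47.0%), so changes of about that size hang on the scaling. Over all genes 7293 were called, and 5221 to 9920 with a library left out, most without GLCC1 siRNA 2. With totals scaled by TMM the keratin share fell by 0.326 percentage points. Leaving out a library gave 1 to 3 other keratins higher, 0 to 2 linking genes higher and 4 to 10 lower, 0 to 1 binding genes higher and 2 to 7 lower, the last without GLCC1 siRNA 2. A filter of 10 counts in every library left 1 other keratin and 2 other filament genes called lower, since fewer were tested. Library totals gave 2 linking and 2 binding genes higher.

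Same-numbered libraries did not deviate together (r of −0.155, −0.288 and −0.008 over 14875 genes). Pairs with unlike numbers ran from −0.239 to 0.252. The values thus show no sign of pairing by number, but with 3 libraries in a group they cannot tell whether samples were paired. With the replicate block 6522 genes were called, and 0 binding genes were higher. At under 20 counts per library KRT20, KRT7, KRT81, KRT23 and KRT17 are limited by depth.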
